A study of Mus musculus with 12 samples.

Results

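Collagen genes were defined as all genes whose annotated symbol has the form of a collagen chain, Col, a type number, the letter a and a chain number. On the array, 41 such genes were named by 91 of the 45135 probes, out of 19031 genes named in all. The reference table of mouse genes lists 44 genes of this form, and Col6a3, Col12a1 and Col20a1 had no named probe. Of the 41 genes, 35 had a probe that passed the filter on dim signals (a detection p under 0.05 on at least 3 of the 12 arrays) and were tested, through 56 probes. The other 6, Col10a1, Col11a2, Col22a1, Col6a4, Col6a5 and Col6a6, had no such probe and are described by detection only.

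RNA came from mouse brain gliomas on a C57BL/6 background, 1 tumour and 1 Illumina bead array per animal. All animals carried Tlx flox/flox and Nestin-Tva, a receptor for avian retroviral vectors under the Nestin promoter, and all received tamoxifen after gliomas had formed. The 6 Tlx knockout animals (aged 48 to 79 days) also carried Nestin-CreERT2, a tamoxifen-activated recombinase driven by the Nestin promoter. The 6 Tlx intact littermates (aged 38 to 51 days) were Cre-negative, so Tlx status and Cre carriage cannot be told apart, and the groups also differed in age at severe symptoms. The Nestin promoter limits recombination to cells that use it, and the RNA is from excised tumour tissue with all its cell types. In such bulk tissue, fewer cells of a type and less RNA per cell cannot be told apart.

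Tlx is the older name of Nr2e1, which encodes a nuclear receptor of neural stem cells. Levels are given as log2 of normalized intensity, and differences as knockout minus intact on that scale. The level of Nr2e1 averaged 5.55 ± 0.53 in knockout tumours and 6.13 ± 0.44 in intact tumours (SD, n = 6 each). The difference was -0.58 (limma adjusted p = 0.405), and the gene was detected on all 12 arrays. Where its probe lies relative to the deleted part was not examined here. Arrays had median signals of 134.5 to 161.3 intensity units and detected 50.8% to 54.8% of probes. The glioma and glial genes Olig1, Olig2, Sox10, Pdgfra, Nes and Gfap were detected on all 12 arrays.

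Collagens are secreted or membrane-bound proteins built from 3 chains wound into a triple helix, and they are the main structural proteins of extracellular matrix. Fibrillar collagens form the ropes of connective tissue. Collagen IV forms the mesh of basement membranes, with collagens XV and XVIII attached to it, and collagen VI forms beaded filaments beside them. Fibril-associated collagens decorate fibrils and transmembrane collagens sit in the cell surface. Normal brain tissue holds little fibrillar collagen, most of it in meninges and around large vessels, whereas basement membrane collagens sheathe every brain capillary.

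Some collagen genes lie in pairs on a chromosome, and the start regions of 3 such pairs are shown because their chains are compared across arrays further on. The sequences are RefSeq start regions on build GRCm38.p6, from 250 bases before to 50 bases after the transcription start, written 5′ to 3′ on the gene's own strand. Capitals mark 3 promoter motifs on either strand: the CCAAT box (CCAAT), the GC box (GGGCGG) and the TATA box (TATAAA). These matches are descriptions of letters and not evidence of binding. Col4a1 (chr8:11312777-11313076, minus strand) and Col4a2 (chr8:11312555-11312854, plus strand) lie on opposite strands, with listed starts 21 bases apart. Their first transcribed bases overlap, and the windows share 78 bases.
Col4a1: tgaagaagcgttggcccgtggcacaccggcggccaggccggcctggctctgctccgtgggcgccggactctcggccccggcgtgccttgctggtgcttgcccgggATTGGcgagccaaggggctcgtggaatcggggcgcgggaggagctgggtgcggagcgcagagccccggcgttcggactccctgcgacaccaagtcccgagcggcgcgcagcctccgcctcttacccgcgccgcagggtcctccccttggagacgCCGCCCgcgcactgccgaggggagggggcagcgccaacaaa
Col4a2: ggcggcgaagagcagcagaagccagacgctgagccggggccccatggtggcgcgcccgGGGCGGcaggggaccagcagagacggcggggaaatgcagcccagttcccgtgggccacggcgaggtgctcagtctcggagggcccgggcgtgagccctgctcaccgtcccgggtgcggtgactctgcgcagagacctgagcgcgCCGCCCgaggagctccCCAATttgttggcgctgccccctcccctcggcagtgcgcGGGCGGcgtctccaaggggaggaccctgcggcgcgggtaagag
Col4a6 (chrX:141474027-141474326, minus strand) and Col4a5 (chrX:141475169-141475468, plus strand) run away from each other, with starts 1343 bases apart and no shared bases in these windows.
Col4a6: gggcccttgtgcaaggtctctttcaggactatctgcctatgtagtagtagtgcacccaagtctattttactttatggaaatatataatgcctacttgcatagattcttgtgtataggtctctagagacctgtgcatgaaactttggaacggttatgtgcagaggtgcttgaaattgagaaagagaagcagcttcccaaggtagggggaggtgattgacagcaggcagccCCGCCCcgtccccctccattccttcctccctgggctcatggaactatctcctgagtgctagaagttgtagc
Col4a5: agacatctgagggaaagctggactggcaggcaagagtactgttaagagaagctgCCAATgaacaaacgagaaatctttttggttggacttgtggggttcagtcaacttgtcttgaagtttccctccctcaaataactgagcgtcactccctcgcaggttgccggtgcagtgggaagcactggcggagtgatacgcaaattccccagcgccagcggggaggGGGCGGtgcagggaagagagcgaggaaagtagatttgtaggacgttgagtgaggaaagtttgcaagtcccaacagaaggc
Col6a2 (chr10:76623581-76623880, minus strand) and Col6a1 (chr10:76725995-76726294, minus strand) lie on the same strand with starts 102414 bases apart.
Col6a2: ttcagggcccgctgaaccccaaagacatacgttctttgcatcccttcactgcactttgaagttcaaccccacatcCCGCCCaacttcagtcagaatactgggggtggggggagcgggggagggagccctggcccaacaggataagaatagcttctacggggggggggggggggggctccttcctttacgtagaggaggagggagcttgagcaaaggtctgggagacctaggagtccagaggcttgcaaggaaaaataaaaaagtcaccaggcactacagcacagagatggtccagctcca
Col6a1: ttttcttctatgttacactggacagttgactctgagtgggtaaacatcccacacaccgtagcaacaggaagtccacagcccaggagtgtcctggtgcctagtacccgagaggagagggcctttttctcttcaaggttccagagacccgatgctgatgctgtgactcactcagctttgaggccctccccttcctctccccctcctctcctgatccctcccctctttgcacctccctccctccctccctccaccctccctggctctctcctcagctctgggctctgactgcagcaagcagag

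The Col4a2 window held 3 GC boxes and 1 CCAAT box, and the Col4a1 window held 1 of each. The GC box that begins at position 8 of Col4a2 and the one at position 10 of Col4a1, counted from the first transcribed base, both lie in the shared stretch and are the same bases read from opposite strands. The Col6a1 window held none of the 3 motifs and the Col6a2 window held 1 GC box. Over the 38 start regions listed for collagen genes, 23 (60.5%) held a GC box, against 35.7% of all 32851 start regions of the same length. The CCAAT box was in 13 collagen regions (34.2%, against 37.4% of all) and the TATA box in 5 (13.2%, against 13.6% of all). Windows were listed for 35 collagen genes, 28 of them among the 35 tested.

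Collagen probes passed the filter about as often as other probes, 56 of 91 (61.5%) against 62.0% of all 45135. Of the 91, 21 were detected on all 12 arrays and 18 on none. A probe detected on all 12 arrays existed for 17 genes. They were the fibrillar genes Col1a2, Col2a1, Col3a1, Col5a1 and Col24a1, the basement membrane genes Col4a1, Col4a2, Col4a5, Col15a1 and Col18a1, and Col6a1 and Col6a2. The fibril-associated genes Col9a2 and Col16a1 and the network or anchoring collagens Col7a1, Col8a1 and Col8a2 completed the 17. Col1a1, which encodes the major chain of collagen I, was detected on 11 arrays, with intact replicate 5 the exception. Of the untested genes, Col10a1, Col11a2 and Col6a4 reached 2 arrays with their best probe, Col22a1 and Col6a5 reached 1, and Col6a6 was detected on none.

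The number of collagen probes detected per array overlapped between the groups. It was 40 at the lowest, 45 at the median and 50 at the highest in knockout tumours, and 32, 43 and 48 in intact tumours. Group means were 45.2 ± 4.96 and 41.2 ± 6.34 probes (SD, n = 6 each, knockout first).

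Collagen messages in knockout tumours were more often above than below those in intact tumours, and no single collagen gene passed the test. Of the 35 genes tested, 0 passed an adjusted p of 0.05 in limma, where 0.0141% of all 14155 genes did, and 0 of the 56 probes did, where 0.0107% of all kept probes did. At an unadjusted p under 0.05, 6 of the 56 probes were higher in knockout tumours (background 6.98%) and 0 were lower (background 5.83%). Those of Col5a2 and Col9a3 among the 6 passed the filter on dim signals through the knockout arrays. Of the genes, 4 of 35 were higher at that level, against a background of 6.23% of all genes, and 0 were lower, against 5.72%. The fitted difference was above 0 for 26 of 35 collagens (74.3%), against 49.6% of all genes tested. Many collagens rose and fell together over the arrays, as described further on, so these signs are not independent of each other. The shares are descriptions, and no test compared them. The median difference was 0.33 on the log2 scale, beside -0.003 over all genes. No collagen gene had groups that did not overlap, whereas 0.65% of all genes did. Among the tested members above 0, Col5a2, Col9a1, Col14a1 and Col28a1 passed the filter on dim signals through the knockout arrays. Col4a6, below 0, passed it through the intact arrays. With no filter on dim probes, 29 of all 41 members had a difference above 0, against 47.9% of genes.

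**Figure D1:**
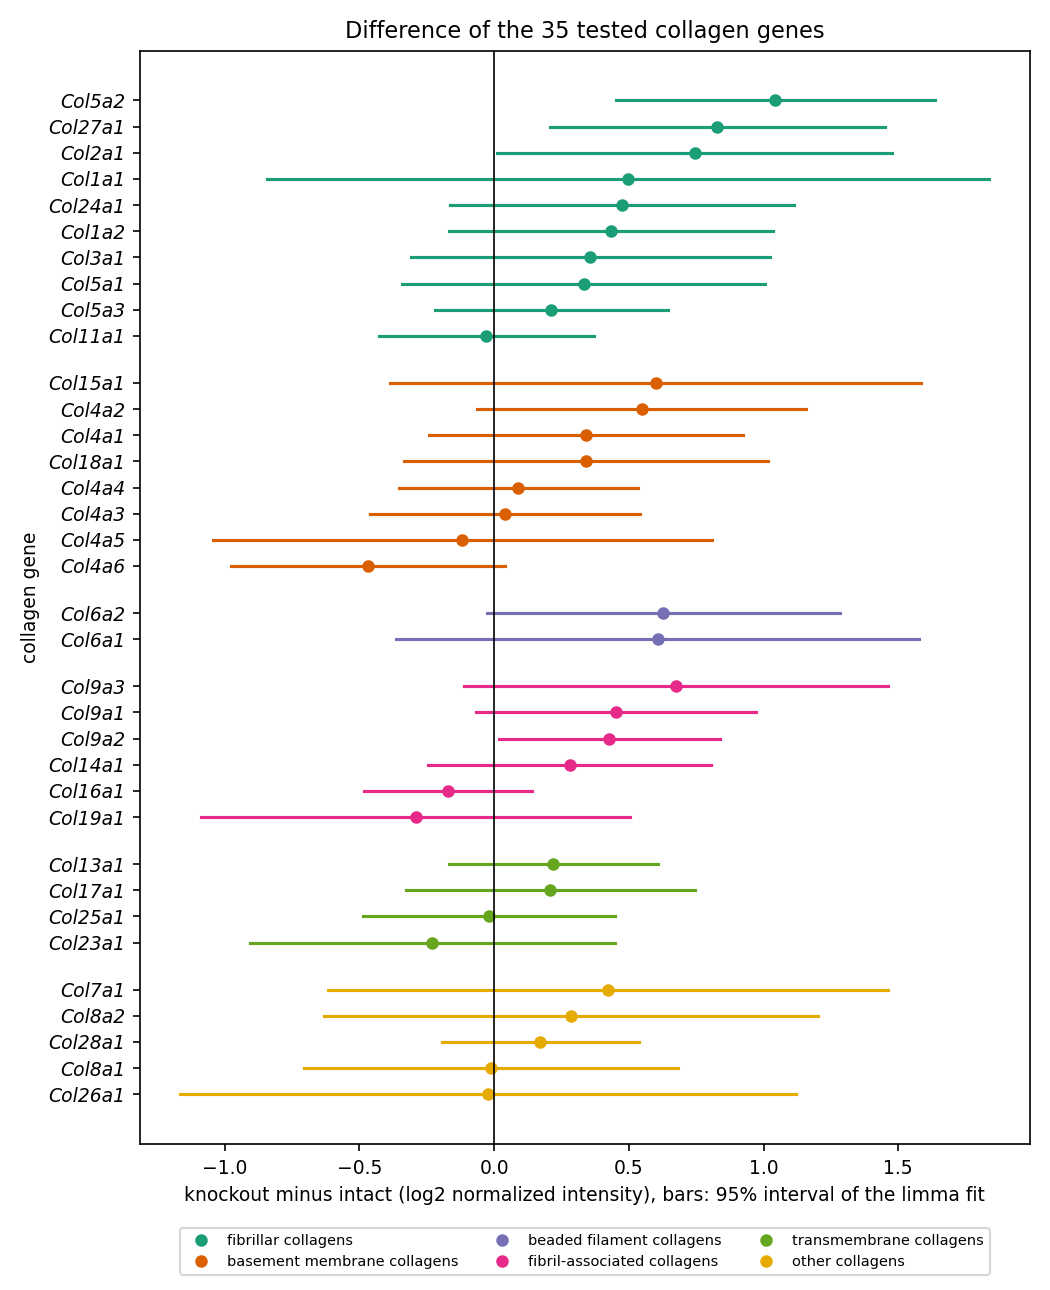
Difference between knockout and intact tumours for the 35 tested collagen genes, grouped by structural class. The horizontal axis is the log2 difference, knockout minus intact, points are limma estimates and bars are 95% intervals, and only those of Col5a2, Col27a1, Col2a1 and Col9a2 leave out 0.

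That count depended on which arrays were compared. Animal label numbers start with 56 for knockout replicates 2, 5 and 6 and for intact replicates 1 and 2, and what the numbers stand for is not given in the labels. Within those 5 arrays the median collagen difference was 0.08, and with the leading label digits as a block 19 of 35 genes were above 0 (background 50%). No other run of label numbers holds both groups, so the blocked differences are those of these 5 arrays. Intact replicates 4, 5 and 6, whose labels share no leading digits, formed 1 block. Knockout replicates 2 to 6 and intact replicate 3 fill the first 6 columns of the deposited table, and the rest fill the last 6. Within the first 6 columns the median was 0.29 and within the last 6 it was 0.64, each with 1 array on its smaller side. With column position as a block it was 0.51, and 31 of 35 were above 0 (background 48.7%). It was 0.12 both with no background correction and with the authors' deposited value table in place of the unnormalized one. The count above 0 did not fall there: it was 29 of 35 with no background correction and higher still with the value table. With no background correction Col1a1 differed by 0.25 (SE 0.31), against 0.50 (SE 0.62) in the main fit, so difference and SE shrank alike. The brighter Col4a1 differed by 0.33, against 0.34. With age, which overlapped little between the groups, as a covariate the median was 0.43, and 29 of 35 were above 0 (background 47.6%). Left out 1 array at a time, the median ran between 0.21 (without knockout replicate 1) and 0.42 (without intact replicate 1), and it was 0.22 without intact replicate 5.

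**Figure D2:**
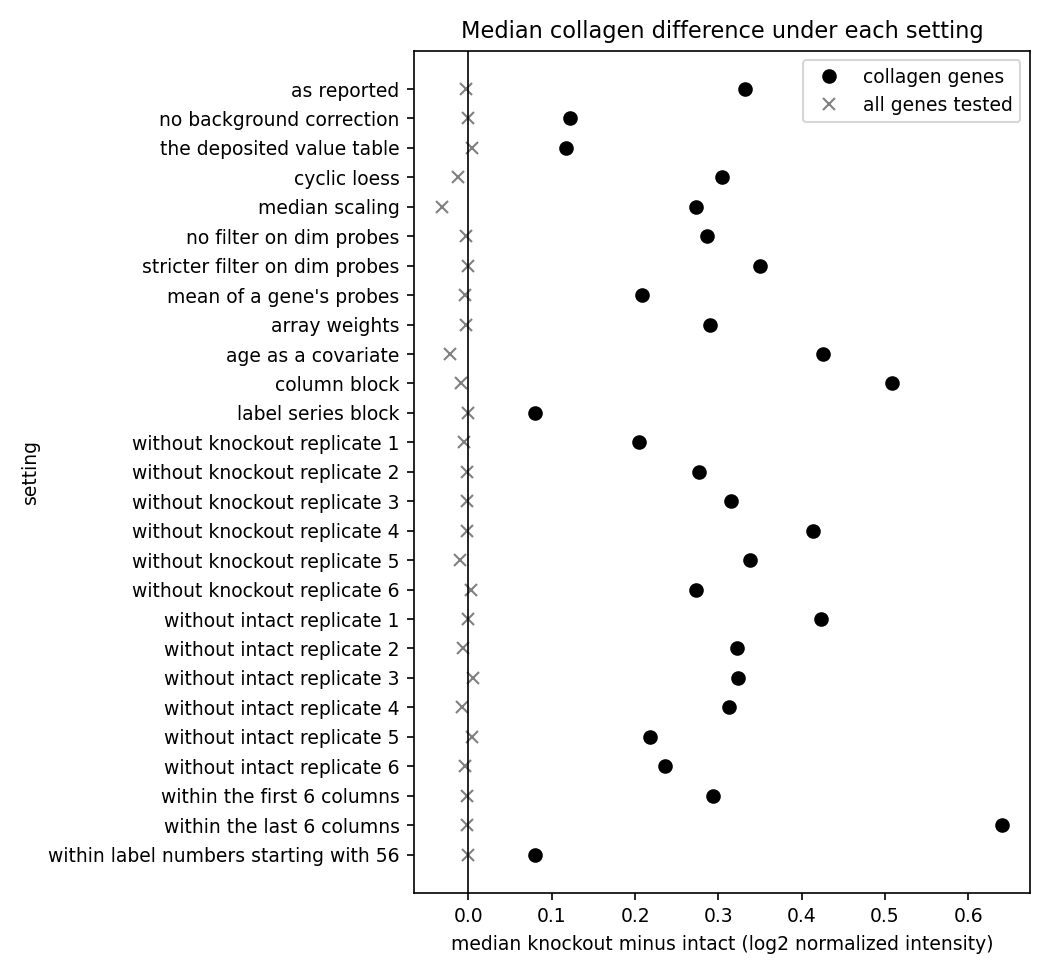
Median difference of the collagen genes (filled points) and of all genes tested (crosses) under each processing setting, in log2 units, knockout minus intact. The collagen median stays above 0 in every setting shown and is lowest, 0.08, within animals whose label numbers start with 56.

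Over all 12 arrays, fibrillar collagens had the highest median of the classes with more than 2 tested members. Differences were above 0 for 9 of 10 tested members, with a median of 0.45 and a range from -0.03 for Col11a1 to 1.04 for Col5a2. The class median was 0.08 within label numbers starting with 56 and 0.94 within the last 6 columns. Col5a2 encodes a chain of collagen V, which sits inside collagen I fibrils and helps set their width. Its log2 level was 4.55 at the lowest, 5.54 at the median and 6.35 at the highest in knockout tumours, and 4.18, 4.32 and 5.30 in intact tumours. In 5 of 6 knockout tumours it was higher than in every intact tumour, while knockout replicate 4 lay among the intact ones. The difference of 1.04 (SE 0.28) had a limma adjusted p of 0.211. This probe was detected on 5 knockout arrays and 1 intact array, so it passed the filter through the knockout arrays and has little measured level on the intact side. The other 4 probes of Col5a2 were detected on 0 or 1 array and were not tested, and their means were 4.24 to 4.36 in knockout tumours and 4.34 to 4.58 in intact tumours.

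Col27a1 encodes a fibrillar collagen known from cartilage. Its log2 level ran from 5.11 through a median of 5.83 to 6.96 in knockout tumours, and from 4.78 through 5.30 to 5.53 in intact tumours. In 5 of 6 knockout tumours it was above every intact value, and the difference was 0.83 (SE 0.29, limma adjusted p = 0.289). Col2a1 encodes the chain of cartilage collagen II. It ran from 5.80 through 6.20 to 7.96 in knockout tumours and from 5.23 through 5.66 to 6.42 in intact tumours, with the highest value in knockout replicate 4. The difference was 0.74 (SE 0.34, limma adjusted p = 0.414) and was 0.45 without that array. Its other kept probes gave 1.51 and 0.56, so all 3 lay on the same side. With age as a covariate the difference was 0.32 for Col27a1 and 0.19 for Col2a1, while it was 1.09 for Col5a2 and 0.43 for Col9a2. A single array left out moved the number of collagens at an unadjusted p under 0.05 from 4 down to 2, without knockout replicate 1 or without knockout replicate 5.

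Among the classical connective tissue collagens, Col1a1 scattered most within groups. It ran from 5.57 through 7.43 to 8.94 in knockout tumours and from 4.38 through 7.01 to 7.78 in intact tumours. The range was over 3 log2 units in each group, and the groups overlapped almost fully. The difference was 0.50 (95% interval -0.84 to 1.84, limma adjusted p = 0.787), 0.05 without intact replicate 5 and -0.28 within the label numbers starting with 56. Col1a2, the partner chain of collagen I, ran from 5.45 through 6.19 to 6.77 in knockout tumours and from 4.72 through 5.82 to 6.35 in intact tumours. Its difference was 0.43 (SE 0.28, limma adjusted p = 0.575). Col3a1, a fibrillar chain of vessel walls and soft connective tissue, ran from 5.54 through 6.54 to 7.24 in knockout tumours and from 5.29 through 6.19 to 6.81 in intact tumours. It had a difference of 0.36 (SE 0.31, limma adjusted p = 0.684), and a second probe gave -0.19. Col5a1, the main chain of collagen V, differed by 0.33 and Col5a3, a rarer chain of it, by 0.21. Col24a1, another fibrillar chain, differed by 0.48. Within label numbers starting with 56 the difference was -0.29 for Col5a1 and -0.18 for Col5a3, and within the first 6 columns it was -0.62 for Col24a1.

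**Figure D3:**
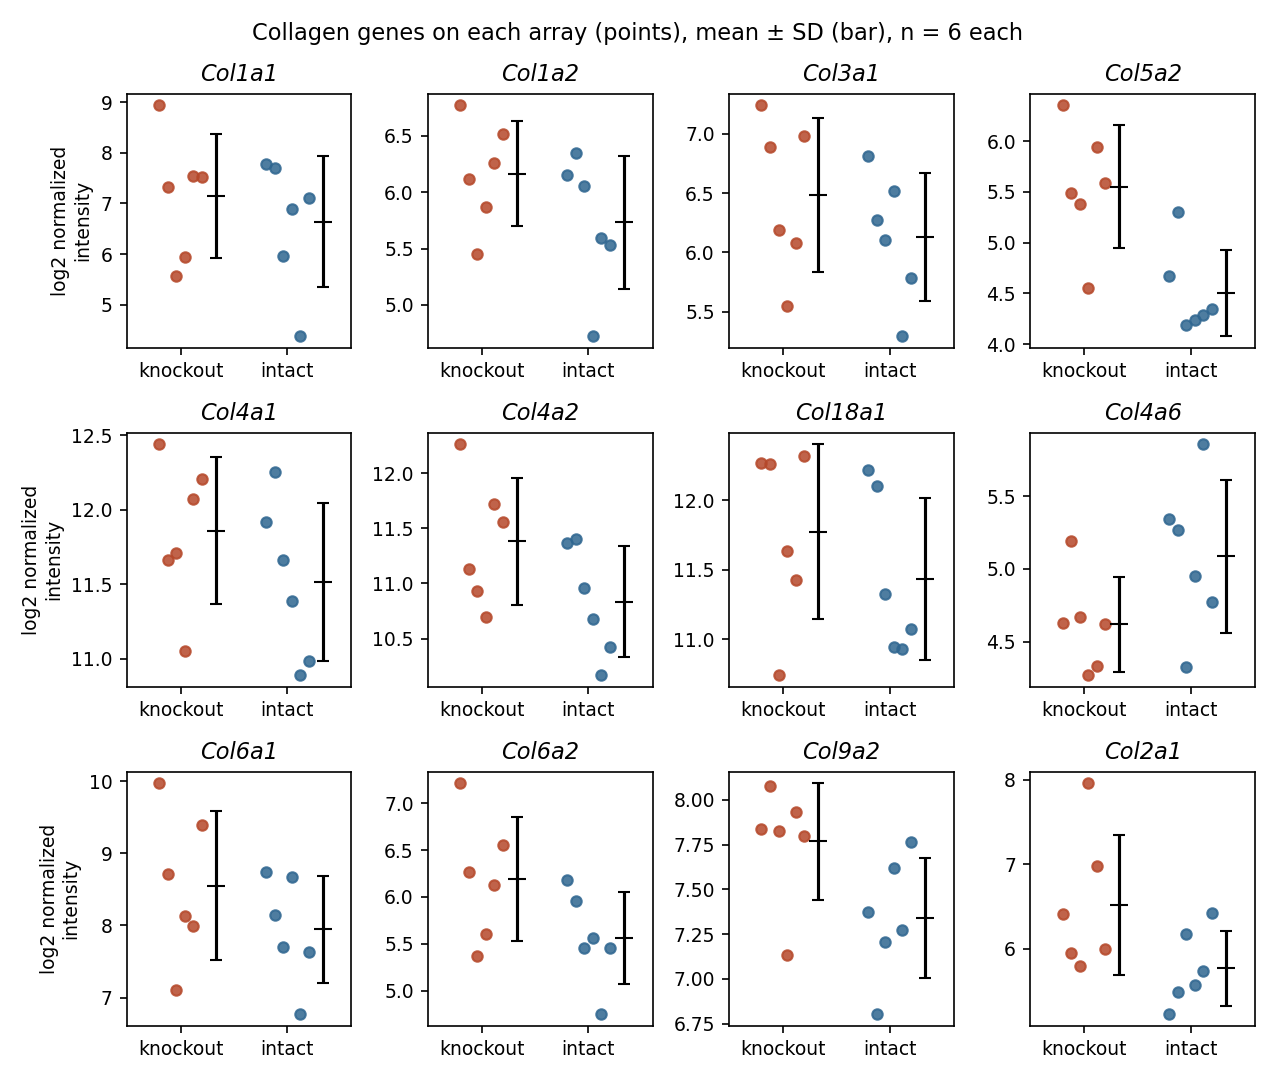
Log2 normalized intensity of 12 collagen genes on each array, knockout left and intact right, with the group mean ± SD beside the points (n = 6 each). Groups overlap in every panel, Col5a2 has 5 of 6 knockout points above all intact points, and each panel has its own vertical axis.

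Basement membrane collagens were above 0 in 6 of 8 tested members, with a median of 0.22. The class median turned to -0.14 within label numbers starting with 56, and it was 0.44 within the first 6 columns and 0.67 within the last 6. Col4a1 and Col4a2 encode the chains of the collagen IV trimer found in all basement membranes, capillaries included. Col4a1 ran from 11.05 through 11.89 to 12.44 in knockout tumours and from 10.89 through 11.53 to 12.26 in intact tumours. Its difference was 0.34 (SE 0.27, limma adjusted p = 0.652). Col4a2 ran from 10.69 through 11.34 to 12.27 in knockout tumours and from 10.17 through 10.82 to 11.41 in intact tumours. Its difference was 0.55 (SE 0.28, limma adjusted p = 0.469), with 3 knockout tumours above every intact one and 3 intact tumours below every knockout one. Within label numbers starting with 56 the differences were -0.10 for Col4a1 and 0.08 for Col4a2.

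The other collagen IV chains form trimers found in fewer basement membranes. Col4a3 and Col4a4 differed by 0.04 and 0.09 and were detected on 7 and 8 arrays. Col4a5 differed by -0.12 with detection on all 12. Col4a6 had the most negative difference of the 35. Its log2 level ran from 4.27 through 4.63 to 5.19 in knockout tumours and from 4.32 through 5.11 to 5.86 in intact tumours, with detection on 1 knockout array and 5 intact arrays. The difference was -0.47 (SE 0.24, limma adjusted p = 0.465), the groups overlapped, and its other kept probes gave 0.06 and -0.01.

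Col15a1 and Col18a1 encode proteoglycan-like collagens of basement membranes, and a fragment of the Col18a1 product is endostatin. Col15a1 differed by 0.60 (SE 0.46, limma adjusted p = 0.636). Col18a1 ran from 10.74 through 11.95 to 12.32 in knockout tumours and from 10.93 through 11.20 to 12.22 in intact tumours, a difference of 0.34 (SE 0.31, limma adjusted p = 0.699). High values of Col18a1 occurred in both groups, in knockout replicates 1, 2 and 6 and in intact replicates 1 and 2. Its other kept probes gave 0.38 and -0.29. Of the 15 collagen genes with more than 1 kept probe, 8 had probes that differed in sign. With the mean of its kept probes in place of 1 probe, the difference was 0.14 for Col18a1, 0.08 for Col3a1 and -0.14 for Col4a6.

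Collagen VI was measured through 2 of its chains. Col6a1 ran from 7.11 through 8.42 to 9.98 in knockout tumours and from 6.77 through 7.93 to 8.75 in intact tumours, a difference of 0.61 (SE 0.45, limma adjusted p = 0.627), and 0.45 by a second probe. Col6a2 ran from 5.37 through 6.20 to 7.22 in knockout tumours and from 4.75 through 5.51 to 6.19 in intact tumours. Its difference was 0.63 (SE 0.30, limma adjusted p = 0.441), 0.05 by its second kept probe and 0.34 by the mean of both. Both genes were highest in knockout replicates 1 and 6 and lowest in intact replicate 5, and the groups overlapped.

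Fibril-associated collagens were above 0 in 4 of 6 tested members, with a median of 0.35, which was -0.15 within the first 6 columns. This median was 0.09 with no background correction and 0.13 with a stricter filter (detection p under 0.01 on at least 6 arrays). Collagen IX is a cartilage and eye collagen whose trimer holds 1 chain from each of its 3 genes. Col9a2 ran from 7.14 through 7.83 to 8.08 in knockout tumours and from 6.80 through 7.32 to 7.76 in intact tumours. In 5 of 6 knockout tumours it was above every intact value, and the difference was 0.43 (SE 0.19, limma adjusted p = 0.404). Col9a1 and Col9a3 differed by 0.45 and 0.68, and by 0.01 and 0.40 through their second kept probes. The first probe of Col9a1 was detected on 5 knockout arrays and 1 intact array, and its second on 2 and 2. The first probe of Col9a3 was detected on 6 knockout and 4 intact arrays, and its second on 3 and 0. The first Col9a1 probe and the second Col9a3 probe thus passed the filter through the knockout arrays. Col16a1, a fibril-associated collagen detected on every array, ran from 12.34 through 12.42 to 12.94 in knockout tumours and from 12.38 through 12.74 to 12.91 in intact tumours. Its difference was -0.17 (SE 0.15, limma adjusted p = 0.675), and its spread over the 12 arrays was the lowest of the 17 always-detected collagens (SD 0.23). Col14a1, which binds collagen I fibrils, differed by 0.28, and by 0.02 through its second kept probe. The first probe of Col14a1 was detected on 3 knockout arrays and 1 intact array, and so passed the filter through the knockout arrays. Col19a1, another member of this class, differed by -0.29 (SE 0.37, limma adjusted p = 0.790).

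Transmembrane collagens had a median of 0.10 (0.34 within label numbers starting with 56) with 2 of 4 above 0, and all 4 were detected on 3 to 9 arrays. Col13a1, a collagen of neuromuscular junctions, differed by 0.22. Col17a1, known from the attachment of skin epithelium, differed by 0.21. Col25a1, whose product is found with amyloid deposits in human brain, differed by -0.02. Col23a1 differed by -0.23 (SE 0.32, limma adjusted p = 0.809). The remaining 5 had a median of 0.17, and of -0.09 within label numbers starting with 56. Of these, Col7a1, which encodes the anchoring fibrils of skin, differed by 0.42 and Col8a2, of the network collagen VIII, by 0.29. Col8a1 and Col26a1 lay at -0.01 and -0.02, and Col28a1 at 0.17. The Col28a1 probe was detected on 5 knockout arrays and 2 intact arrays, and so passed the filter through the knockout arrays.

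Many collagen genes went up and down together over the 12 tumours. The SD over the 12 arrays had a median of 0.60 log2 units for the 17 always-detected collagens, against 0.34 for the 9430 genes detected on all arrays. Knockout replicate 1 had the highest value for 10 of these 17 and intact replicate 5 the lowest for 7. Averaged over the 17, deviations from each gene's mean were 0.79 in knockout replicate 1 and -0.70 in intact replicate 5. They were above 0 in knockout replicate 1 and in all 5 arrays with label numbers starting with 56, at 0.13 to 0.41, and below 0 in the other 6. Whether this label number accounts for any group difference was not tested beyond the blocked values above.

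**Figure D4:**
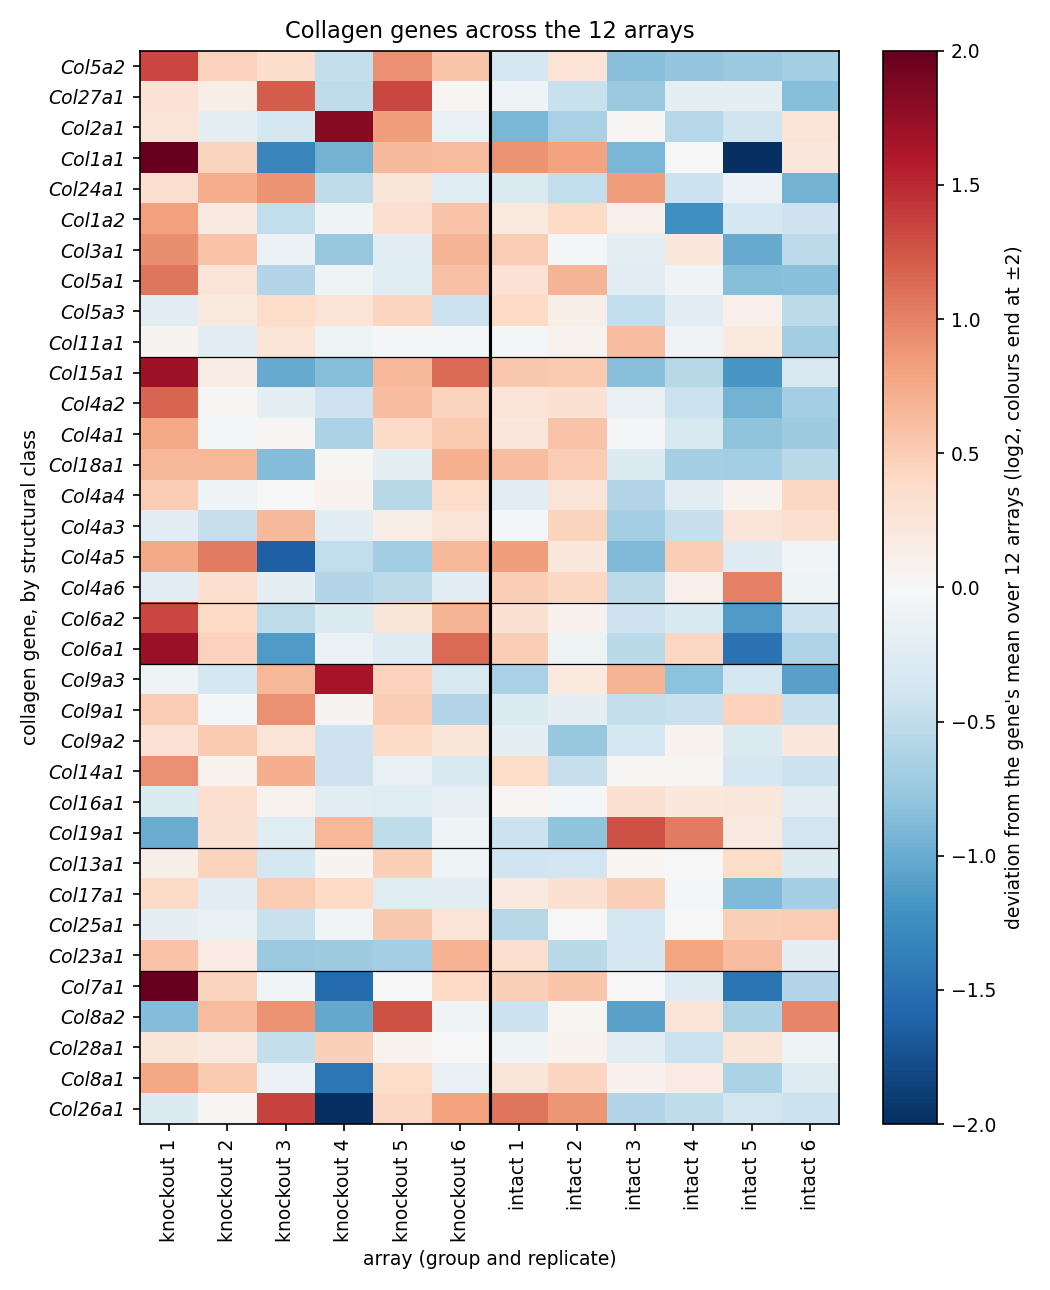
Deviation of each tested collagen gene from its own mean over 12 arrays, in log2 units (colours end at ±2), with knockout arrays left of the black line and intact arrays right of it, and genes grouped by structural class. Knockout replicate 1 is red for most fibrillar, basement membrane and beaded filament genes, and intact replicate 5 is blue for most of them.

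Chains that build one trimer or fibril were compared pair by pair. Of 12 pairs listed, 10 had both genes measured, and 3 of the 10 passed a permutation test of Pearson's r after Benjamini-Hochberg adjustment over the 10. Col4a1 and Col4a2, which start 21 bases apart, had r = 0.94 and Spearman's rho = 0.94 over 12 arrays. The permutation p for r was 1e-05, the smallest that 100000 resamples can give (adjusted p = 1e-04), and that for rho was 3e-05 (adjusted p = 0.00015). Without the 2 arrays farthest from the median, r was 0.93. It was 0.93 in the knockout group (exact permutation p = 0.0139) and 0.98 in the intact group (exact permutation p = 0.00417). Within the first and last 6 columns it was 0.90 and 0.96.

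Col6a1 and Col6a2, which start 102414 bases apart, had r = 0.92 (permutation p = 3e-05, adjusted p = 0.00015) and rho = 0.93 (permutation p = 3e-05, adjusted p = 0.00015). Without the 2 farthest arrays r was 0.80. It was 0.95 in knockout tumours (exact permutation p = 0.00833) and 0.87 in intact tumours (exact permutation p = 0.0208), and 0.90 and 0.94 within the first and last 6 columns. With the mean of each gene's kept probes in place of 1 probe, r was 0.72 (permutation p = 0.00944, adjusted p = 0.0315). Col1a1 and Col3a1, on different chromosomes, had r = 0.79 (permutation p = 0.00193, adjusted p = 0.00643) and rho = 0.68 (permutation p = 0.0186, adjusted p = 0.0466). Without both knockout replicate 1 and intact replicate 5, r was 0.54 (permutation p = 0.107). It was 0.71 without the first of these alone (adjusted p = 0.049) and 0.69 without the other alone (adjusted p = 0.0647). Within the first and last 6 columns it was 0.64 and 0.88.

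The other pairs did not pass the test of r. Col1a1 and Col1a2 had r = 0.57 (permutation p = 0.0554, adjusted p = 0.111) and rho = 0.79 (permutation p = 0.00345, adjusted p = 0.0115). Their r was 0.95 in knockout tumours (exact permutation p = 0.00833) and 0.23 in intact tumours (exact permutation p = 0.626). It was 0.79 without intact replicate 4 (permutation p = 0.00367, adjusted p = 0.00917) and 0.43 without knockout replicate 1. With no background correction it was 0.71 (permutation p = 0.0109, adjusted p = 0.0272). Col4a5 and Col4a6, on opposite strands of chromosome X, had r = 0.40 (permutation p = 0.199, adjusted p = 0.284) and rho = 0.47 (permutation p = 0.127, adjusted p = 0.201). With the mean of each gene's kept probes in place of 1 probe, this pair passed, at r = 0.69 (permutation p = 0.014, adjusted p = 0.0351). Col9a2 and Col9a3 had r = -0.33 (permutation p = 0.299, adjusted p = 0.374) and rho = -0.17 (permutation p = 0.588, adjusted p = 0.588). Within each group their r was -0.85 in knockout tumours (exact permutation p = 0.0597) and -0.79 in intact tumours (exact permutation p = 0.0611). The 4 remaining pairs had r between 0.24 and 0.61, with adjusted p of at least 0.0913. Without the 2 farthest arrays r was 0.43 for Col1a1 with Col1a2, 0.37 for Col4a5 with Col4a6 and -0.01 for Col9a2 with Col9a3.

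**Figure D5:**
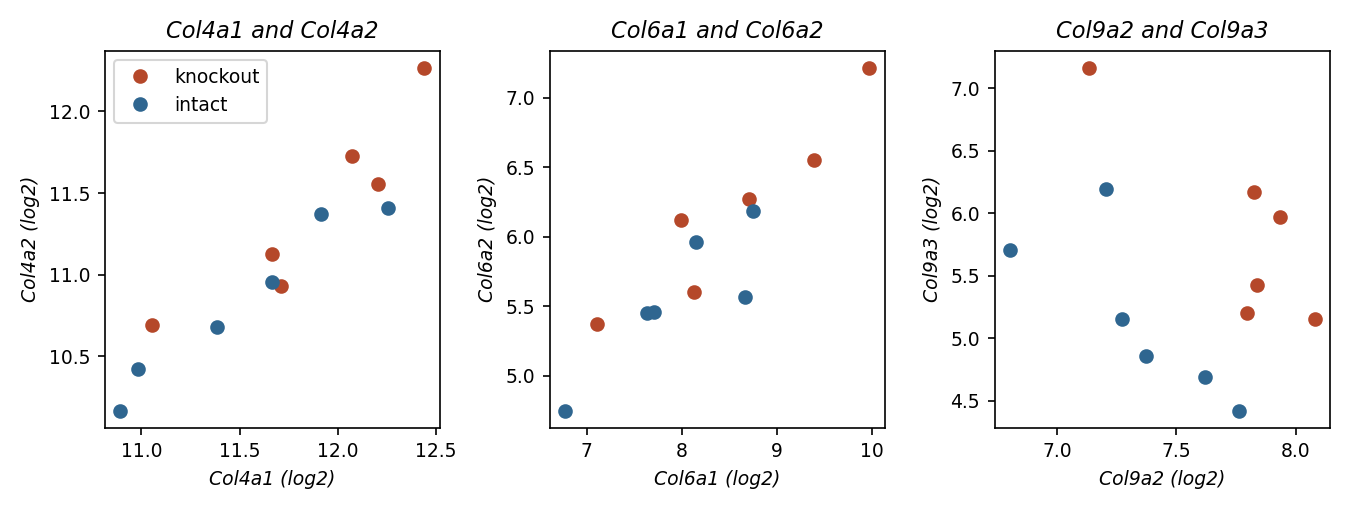
Log2 levels of 3 pairs of collagen chains on the 12 arrays, knockout and intact marked by colour. Col4a1 with Col4a2 (r = 0.94) and Col6a1 with Col6a2 (r = 0.92) lie along a line, and Col9a2 with Col9a3 (r = -0.33) do not.

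The pattern of Col4a1 over the 12 arrays was shared by members of several classes. Of the other 34 tested collagens, 12 had r above 0.6 with it, and after Col4a2 the closest were Col7a1 (0.88), Col15a1 (0.83), Col6a2 (0.82) and Col5a1 (0.81). Correlation was below 0 for 7 members, with Col19a1 lowest (-0.54). These values describe 12 arrays that share 1 normalization and carry no test.

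Genes that act on collagen, chosen by function, gave 0 calls at an adjusted p of 0.05 as well. Of 23 measured genes for collagen folding and cross-linking, 12 were above 0, with a median of 0.07, and 3 were higher at an unadjusted p under 0.05. These shares stand beside 49.6% and 6.23% of all genes, as do those of the lists that follow. Ppib, a prolyl isomerase of collagen folding, averaged 10.98 ± 0.16 in knockout tumours and 10.26 ± 0.57 in intact tumours (SD, n = 6 each), 0.72 apart (limma adjusted p = 0.246). Colgalt2, a collagen galactosyltransferase, differed by 0.66 and P3h1, a prolyl 3-hydroxylase, by 0.48. The receptors had 6 of 8 above 0 and a median of 0.09. Ddr1, a receptor tyrosine kinase that binds collagen, averaged 10.84 ± 0.39 in knockout tumours and 9.78 ± 0.72 in intact tumours (SD, n = 6 each), 1.06 apart (limma adjusted p = 0.213). Itga1, a collagen-binding integrin chain, differed by 0.99 and Lair1, an inhibitory collagen receptor of immune cells, by 0.59.

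Proteases that cut collagen had 5 of 7 above 0 and a median of 0.33, yet the 2 with an unadjusted p under 0.05 were both lower in knockout tumours (background 5.72%). Ctsl, the lysosomal protease cathepsin L, averaged 5.01 ± 0.63 in knockout tumours and 6.24 ± 0.63 in intact tumours (SD, n = 6 each), -1.23 apart (limma adjusted p = 0.211). Its probe was detected on 3 knockout arrays and 6 intact arrays, so part of the knockout side has little measured level. Mmp9, a gelatinase, differed by -0.86 (limma adjusted p = 0.340), and Mmp14, a membrane-bound collagenase, by 0.65 (limma adjusted p = 0.465). Other basement membrane genes had 11 of 15 above 0, with a median of 0.13. Lama1, a laminin chain, differed by 1.27 (limma adjusted p = 0.350), and Nid1 and Nid2, which link laminin to collagen IV, by 0.78 and 0.59. Other interstitial matrix genes had 7 of 15 above 0 and a median of -0.03. Among these, Thbs1 differed by 0.75 (detected on 6 knockout arrays and 3 intact arrays), Fbln1 by -0.73 and Tgfbi by 0.78.

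Markers of cells that make collagen were examined in the same fit, and again 0 genes passed. Of the 14 endothelial markers, 13 were detected on all 12 arrays, and the 13 tested had a median of 0.25 with 8 above 0. Those with the smallest unadjusted p were Eng at 0.73, Emcn at 0.48 and Tie1 at 0.48 (limma adjusted p of 0.213, 0.409 and 0.371). The other direction held 5 of the 13, with the lowest at -0.30. Pericyte and smooth muscle markers had 6 of 12 above 0 and a median of -0.02, with Rgs5 at -1.56, Kcnj8 at -0.78 and Cspg4 at 0.71. Cspg4 also stands in the oligodendrocyte lineage list, so its value cannot be assigned to pericytes. Fibroblast and meningeal markers had 3 of 10 above 0 and a median of -0.03. Of these 14 genes, 5 were detected on all 12 arrays and Dpep1 on none. Pdgfra, named above with the glioma and glial genes, is among those 5 and also stands in the oligodendrocyte lineage list.

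The summed level of each list moved between tumours too. The mean deviation of the endothelial markers ran from -0.24 to 0.55 in knockout tumours and from -0.54 to 0.24 in intact tumours, highest in knockout replicate 1 and lowest in intact replicate 5, as for many collagens. The fibroblast and meningeal markers ran from -0.87 to 0.51 in knockout tumours and from -0.64 to 0.31 in intact tumours, and the pericyte markers from -0.88 to 0.38 and from -0.19 to 0.33 (knockout first). Both were highest in knockout replicate 1 and lowest in knockout replicate 4. Neuron markers were below 0 in 10 of 10 tested genes, with a median of -1.17, and their mean deviation ran from -1.56 to 0.50 in knockout tumours and from -1.16 to 1.66 in intact tumours. Astrocyte markers had 8 of 9 below 0 (median -0.64). Oligodendrocyte lineage, microglia and macrophage, and choroid plexus markers had medians of -0.04, 0.18 and -0.02. The part of these cell types in the collagen values was not tested.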

How the data were processed

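Per the file headers, the authors deposited linear intensities with a detection p-value beside each, for 45135 probes on 12 Illumina arrays, without normalization between arrays. The authors' deposited value table of intensities served as an alternative, and neither its normalization nor the computation of detection p-values is stated in the sources used here. Columns of other samples numbered 0. Probe names came from the platform annotation, updated against the reference table of GRCm38.p6: 34772 probes had 1 symbol, 18 several and 10345 none.

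Intensities were corrected and quantile-normalized with neqc (limma 3.58.1, R 4.3.3, offset 16) and taken to log2. Probes with a detection p under 0.05 on at least 3 of 12 arrays were kept. A gene was its probe with the highest mean, and that choice was replaced by the mean of its probes in 1 alternative. Knockout and intact were compared by limma (lmFit, eBayes; two-sided), p-values were adjusted by Benjamini-Hochberg over 14155 genes with a threshold of 0.05, and the fit was tested on simulated data. Pairs of chains were correlated with two-sided permutation tests (100000 resamples, exact within 6 arrays). The number of arrays limits precision.

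The members and lists were chosen with earlier results of these data known. Genes named with values were Nr2e1, 8 common collagens, the 4 collagens in each direction with the smallest unadjusted p, and up to 3 of each other list by the same measure. Other collagens are named with their difference alone, to account for every member tested. Of the cell type lists, only endothelial and pericyte genes are given with differences. Replicates were numbered in deposition order and pair no animals. Alternatives covered background correction, normalization, the filter, array weights, age, column position, leading label digits and leaving out each array. The alternatives within the first and last 6 columns and within one run of label numbers were chosen after seeing the data.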

Additional observations from a re-analysis of the deposited data

Results flagged for a closer look

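Of 72 groups of 6 arrays examined for a single array far from the others, 2 were picked out, and chance alone picks about 1 in 20. For Col9a1, intact replicate 5 was highest at a log2 level of 5.31, with the next intact tumour at 4.67. For Col9a2, knockout replicate 4 was lowest at 7.14, with the next knockout tumour at 7.80. The difference of Col9a2 was 0.55 without that array, against 0.43 with it.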

How the results depend on the processing

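No paired analysis was possible because replicates were numbered in deposition order and no label pairs a knockout animal with an intact one. Leading label digits, shared by 5 animals of both groups, served as a block. In every setting run, 0 collagen genes passed, with the smallest adjusted p, 0.076, without intact replicate 2. Collagens higher at an unadjusted p under 0.05 numbered 2 with leading label digits as a block, 1 within the first 6 columns and 7 within the last 6, and 2 to 5 with 1 array left out. Those lower numbered 1 with no filter on dim probes, with array weights, with column position as a block, within the first 6 columns and within label numbers starting with 56, and 0 to 1 with 1 array left out. Over all genes, calls numbered 1 with no background correction, the value table, median scaling, the mean of a gene's probes, array weights, age, column position or label digits, and 1 to 104 with 1 array left out (104 without intact replicate 1). The median collagen difference was 0.080 with label digits as a block and within numbers starting with 56, 0.64 within the last 6 columns, 0.12 with no background correction or the value table, and 0.21 to 0.42 with 1 array left out.

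At a detection p under 0.01, median collagen probes detected were 37.5 in knockout and 35.5 in intact tumours. Pairs of chains that passed numbered 5 in the value table, adding Col1a1 with Col1a2 and Col5a1 with Col5a2, and 2 to 4 with 1 array left out. With label digits as a block, and for the collagens also within numbers starting with 56, Col1a1 turned to -0.28, Col4a1 to -0.10, Col18a1 to -0.16, Col19a1 to 0.52, Col23a1 to 0.17, Mmp14 to -0.022, Nid2 to -0.025, Ppib to -0.085 and Tgfbi to -0.50. Within the first 6 columns Col1a2 turned to -0.0079, Col4a6 to 0.29 and Col23a1 to 0.079. The genes listed so far are those named with values, and other collagens turned too. Within label numbers starting with 56, Col5a1 was -0.29, Col5a3 -0.18, Col7a1 -0.23, Col14a1 -0.08 and Col17a1 -0.47. Col4a3 was -0.25 and Col4a4 -0.12 there, and Col25a1 was 0.51. Within the first 6 columns Col7a1 was -0.15, Col9a3 -0.26, Col14a1 -0.034, Col17a1 -0.43 and Col24a1 -0.62. Col4a5, Col25a1 and Col26a1 turned to 0.66, 0.38 and 0.63 there. Among the collagens named with values, Col23a1 was 0.36 within the last 6 columns and 0.22 with column position as a block, and Col16a1 was 0.051 with age. The cause was not tested.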
